A study of Mus musculus with 15 samples.

Results

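Expression of Apln, Aplnr, Cxcr4, Ackr3, Esm1, Fscn1, Marcksl1, Inhbb and Mcam was followed across 8 cell populations. These 9 genes, taken by symbol from the 44674 genes of the count table, are the apelin ligand and its receptor, the CXCL12 receptors and 5 further genes used as markers of endothelial tip cells. Bulk RNA-seq had been made from mouse endothelial cells (ECs) and stromal cells grown from bone marrow (BM) or lung, to compare ECs that carry the surface sialomucin endomucin (Emcn) with ECs that lack it, in primary culture (P0) and after passaging (P1 to P4). P0 Emcn+ BMECs, P0 Emcn- BMECs, lung ECs, Emcn- BMECs at P1, P2 and P3 and mesenchymal stromal cells of the marrow (BM MSC) were each sequenced as 2 libraries, and P4 as 1, so P4 has no spread and enters no test. All samples carry the genotype label WT.

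By the methods, the ECs came from adult mice, most of them 4 to 6 months old, that carried a Tamoxifen-induced Tie2-CreERT2 transgene and a Rosa26-tdTomato reporter, so cells with past activity of the Tek promoter were marked. Viable CD45- tdTomato+ cells were sorted by Emcn from whole bone marrow cultures after about 2 weeks in endothelial growth medium, and that the lung ECs were Emcn- is given by the paper and not by the labels. BM MSC were sorted as CD45- tdTomato+ cells from cultures of Osx-Cre;Rosa26-tdTomato marrow, where Cre is driven by an osteolineage promoter, in a stromal medium. A dish usually held the marrow of 1 mouse, and which libraries shared a mouse is not given in the sources used here, so the p-values measure the spread between libraries.

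During sprouting angiogenesis a leading tip cell extends filopodia and trailing stalk cells build the vessel wall. Tip cells are known to express Apln, Esm1 and Cxcr4. Apelin, a secreted peptide, acts on the G protein-coupled receptor Aplnr of neighbouring ECs, while CXCL12, made in marrow mainly by stromal cells, signals through Cxcr4 and is bound and removed by the atypical receptor Ackr3. Fscn1 encodes fascin, which bundles actin in filopodia, and Marcksl1 an actin-binding protein of the cell cortex. Esm1 encodes the secreted proteoglycan endocan, Inhbb the beta B subunit of activin B and inhibin B, and Mcam the adhesion molecule CD146 of ECs and pericytes.

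By the GENCODE M21 annotation of GRCm38 the ligand gene is Apln (chrX:48025146-48034853, minus strand), and its receptor gene Aplnr (chr2:85136225-85139923, plus strand). The CXCL12 receptors Cxcr4 (chr1:128588199-128592293, minus strand) and Ackr3 (chr1:90203980-90216751, plus strand) share a chromosome with Inhbb (chr1:119415465-119422248, minus strand). The other genes are Esm1 (chr13:113209659-113218098, plus strand), Fscn1 (chr5:142960343-142973185, plus strand), Marcksl1 (chr4:129513581-129515985, plus strand) and Mcam (chr9:44134469-44142727, plus strand).

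Library totals ranged from 9914620 to 39718807 counts, so a limit of 3 counts, which a count of 0 allows, lies between 0.0755 and 0.303 CPM (the count scaled to the total of its library), covering counting error only. By the labels, batch d held replicate 1 and batch a replicate 2 of the P0 and lung populations, batch b held replicate 1 of P1 to P3 and P4, and batch c held replicate 2 of P1 to P3 and both BM MSC. The labelled EC type was checked on 12 endothelial markers, whose summed level was 10637 to 12662 CPM in P0 Emcn+, 173 to 415 CPM in P0 Emcn-, 382 to 1097 CPM in lung, 155 to 218 CPM over P1 to P4 and 182 to 492 CPM in BM MSC. The junction gene Cdh5 was near 0 in the passaged cells, with 2 and 5 counts in the P3 libraries, and Cldn5 had 0 counts at P4. Not all 12 markers were that low over P1 to P4. Flt1 stood there at 50.5% to 110% of its P0 Emcn+ mean and Tek at 10.2% to 27.5%. The median of the 12 was 0.380% to 0.525%. The sum of 8 fibroblast markers was 221 to 304 CPM in P0 Emcn+, 15885 to 20387 CPM in P0 Emcn-, 12559 to 13565 CPM in lung, 4097 to 6507 CPM over P1 to P4 and 10657 to 19373 CPM in BM MSC. The libraries labelled Emcn- BMECs and lung ECs thus carried little endothelial and much fibroblast marker RNA.

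P0 Emcn+ BMECs had the highest mean of the 8 populations for all 9 genes, and their lower library lay above every library of the next population for each gene. Against P0 Emcn- BMECs, 8 of the 9 genes were called higher and none lower, where 7.79% of the 19401 genes tested were called higher and 11.4% lower. Called means a log2 fold change beyond 1.5 in size together with an adjusted p (Benjamini-Hochberg, over all genes tested) under 0.05 from the quasi-likelihood test of edgeR, the test behind every adjusted p below. Against lung, again 8 were called higher and none lower, against 8.48% and 12.6% of all genes, with Aplnr the gene not called in either comparison. These comparisons share the P0 Emcn+ libraries. In bulk RNA, fewer cells of a type and less RNA per cell cannot be told apart, and the 12 endothelial markers moved with these comparisons, 10 called higher against P0 Emcn-, and 9 called higher and 1 lower against lung. The median log2 fold change against P0 Emcn- was 2.49 for the 9 genes, 5.90 for the endothelial markers and -0.06 over all genes.

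**Figure D1:**
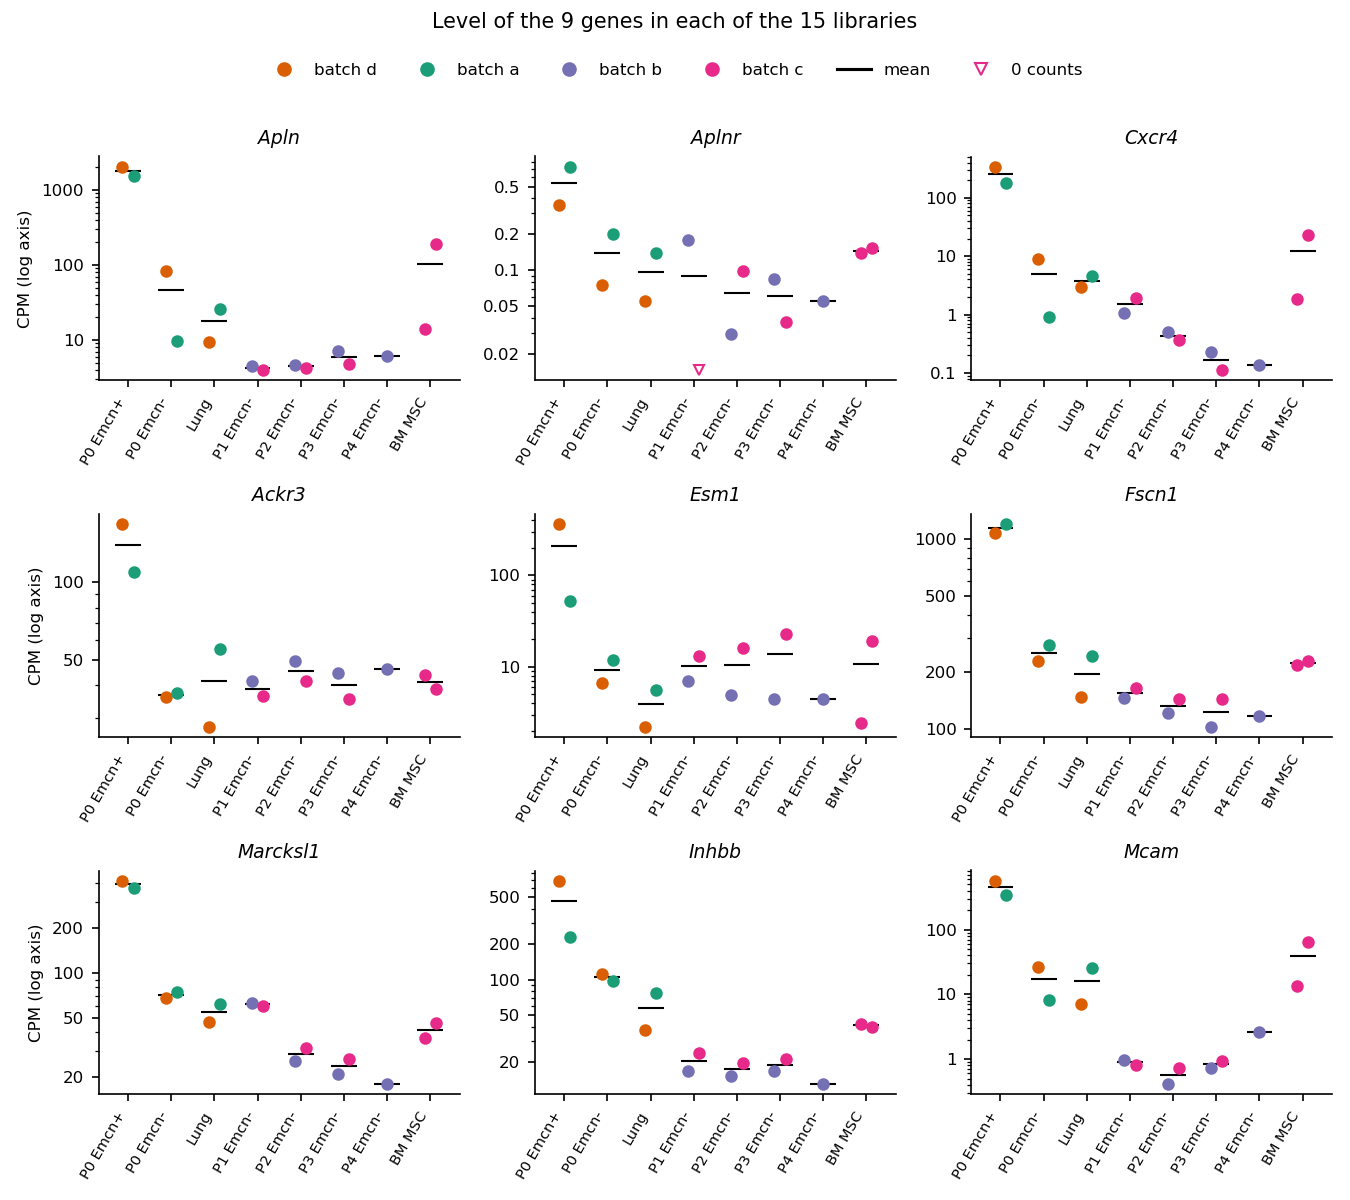
CPM on a log axis in each of the 15 libraries, 1 panel per gene with its own axis. Points are libraries coloured by batch, black bars are means of the 1 or 2 libraries of a population, and the open triangle marks a library with 0 counts. In every panel the P0 Emcn+ libraries lie highest, with Apln between 1535 and 2046 CPM.

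Compared per kilobase of exon, the level in P0 Emcn+ BMECs was highest for Apln, at 569 CPM per kb, then Fscn1 at 380 CPM per kb and Marcksl1 at 245 CPM per kb. Cxcr4 had 143 CPM per kb (98.7 and 188 in its 2 libraries), Mcam 136 (102 and 170), Inhbb 108 (54.5 and 162) and Esm1 100.5 (25.1 and 176), which overlapped one another, and Ackr3 41.6 (32.9 and 50.3), which overlapped Esm1, while Aplnr reached 0.146 CPM per kb. The order differed in P0 Emcn-, where Fscn1 led at 83.6 CPM per kb, followed by Marcksl1 at 44.6, Inhbb at 24.6, Apln at 14.8 and Ackr3 at 10.99. The place of Apln there rests on replicate 1, since its libraries had 26.5 and 3.11 CPM per kb, the second below both Ackr3 libraries. At P3 Fscn1 had 40.7, Marcksl1 14.9 and Ackr3 11.96 CPM per kb, and Apln 1.91.

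Apln had 2046 and 1535 CPM in P0 Emcn+ replicates 1 and 2, 83.5 and 9.78 in P0 Emcn- and 9.33 and 26.1 in lung. It had 4.55 and 3.95 CPM at P1, 4.64 and 4.28 CPM at P2, 7.17 and 4.85 at P3, 6.13 at P4, and 14.2 and 192 in BM MSC. The P0 Emcn+ libraries lay far above all others, the passaged libraries lay lowest, and replicates of P0 Emcn- and of BM MSC stood widely apart. The mean of 103 CPM in BM MSC, 46.6 CPM in P0 Emcn- and 17.7 CPM in lung came from overlapping libraries. Between P0 Emcn+ and P0 Emcn- Apln changed by 5.28 on the log2 scale (standard error 1.24, adjusted p = 0.00792), with 4.62 in batch d and 7.29 in batch a. Leaving out P0 Emcn- replicate 1 or 2 gave 7.57 or 4.46, both called. Over lung the change was 6.64 (standard error 1.32, adjusted p = 0.00297), with 7.78 in batch d and 5.88 in batch a, and 7.54 without lung replicate 2.

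Aplnr stayed near the counting limit throughout. It had 11 and 19 counts in P0 Emcn+, 3 and 2 in P0 Emcn-, 2 and 3 in lung, 6 and 0 at P1, then 1 and 3 (P2), 3 and 1 (P3), 2 (P4), and 5 and 5 in BM MSC. The 30 counts of P0 Emcn+ were the most of any population, at 0.349 and 0.734 CPM, while no other library exceeded 0.202 CPM, and the 0 counts of P1 replicate 2 allow up to 0.108 CPM. The ratio of P0 Emcn+ to P0 Emcn- was 5.19 with a 95% counting interval of 1.99 to 17.1, and the ratio to lung was 6.05 (2.32 to 19.97). The edgeR log2 difference of 2.23 (standard error 1.08, adjusted p = 0.144) against P0 Emcn- and of 2.48 (standard error 1.04, adjusted p = 0.0891) against lung did not pass. So per kilobase the ligand had the highest level of the 9 genes in P0 Emcn+ BMECs and its receptor the lowest.

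Of 12 other genes of the apelin axis 11 were tested, and the second ligand Apela had 0 counts in all 15 libraries. In P0 Emcn+ over P0 Emcn- 4 were called higher and 1 lower, with a median log2 fold change of 0.54. The G protein subunit Gnai2 (log2 fold change 2.27), the receptor adaptor Arrb1 (2.18), the flow-responsive factor Klf2 (1.58) and endothelial nitric oxide synthase Nos3 (5.41) were higher. Mme, encoding neprilysin, a peptidase that degrades apelin, was lower by -3.29, with 7.57 and 8.23 CPM in P0 Emcn+ against 72.1 and 85.9 in P0 Emcn-. Furin, the protease that matures proapelin, was not called in any of the 7 comparisons and lay between 70.9 and 342 CPM in all libraries.

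Cxcr4 had 339 and 178 CPM in P0 Emcn+, 8.99 and 0.908 in P0 Emcn- and 2.95 and 4.56 in lung. The passaged cells had 1.07 and 1.90 CPM at P1, 0.496 and 0.365 CPM at P2, 0.226 and 0.111 CPM at P3 and 0.137 CPM at P4. BM MSC had 1.85 and 23.0 CPM, the second library being the highest outside P0 Emcn+. Lung, P1, P2 and P3 followed each other downwards without overlap, while P0 Emcn- overlapped BM MSC and lung and its replicate 2 lay under both P1 libraries. Cxcr4 in P0 Emcn+ exceeded P0 Emcn- by 5.61 on the log2 scale (standard error 1.15, adjusted p = 0.00376), with 5.24 in batch d and 7.62 in batch a. It was 8.20 without P0 Emcn- replicate 1 and 4.88 without replicate 2. Against lung it was 6.09 (standard error 1.18, adjusted p = 0.00253), with 6.84 and 5.29 in batches d and a. Many blood cells also make Cxcr4, and although CD45+ cells were gated out, the sum of 10 macrophage and blood cell markers was 551 to 554 CPM in P0 Emcn+, 192 to 230 CPM in P0 Emcn- and 20.8 to 22.9 CPM in lung. The CD45 gene Ptprc had 7.73 and 4.02 CPM in P0 Emcn+, and all 10 markers were called higher over lung and 2 over P0 Emcn-. Their part in the Cxcr4 difference was not tested.

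Ackr3, the other CXCL12 receptor, was expressed in every population. It had 169 and 110.1 CPM in P0 Emcn+, 36.3 and 37.3 in P0 Emcn-, 27.6 and 55.5 in lung, and 44.1 and 38.6 in BM MSC. The passaged libraries held 35.3 to 49.5 CPM. Outside P0 Emcn+ every population overlapped its neighbour in the order of means. The difference of P0 Emcn+ from P0 Emcn- was 1.96 on the log2 scale (standard error 0.32, adjusted p = 0.000947), with 2.22 and 1.56 in batches d and a. Over lung it was 1.72 (standard error 0.31, adjusted p = 0.00177), with 2.61 and 0.99, and it fell under the fold change limit without P0 Emcn+ replicate 1 (1.396) or lung replicate 1 (1.33). From P0 Emcn+ to P3 the mean of Cxcr4 went from 259 to 0.168 CPM and that of Ackr3 from 139 to 40.1 CPM.

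The ligand of both receptors ran the other way in P0. Cxcl12 had 217 and 407 CPM in P0 Emcn+, 2541 and 1858 in P0 Emcn-, 814 and 800.2 in lung, and 1453 and 4601 in BM MSC. It was called lower in P0 Emcn+ over P0 Emcn- (log2 fold change -2.79) and was not called lower over lung. Cxcl12 was called higher in BM MSC than in P1 to P3 (2.23). In P0 Emcn+ over P0 Emcn-, Cxcl12 was the only one of the 7 tested genes of the CXCL12 axis called lower. The only one called higher was Gpr182 (5.36), an atypical chemokine-binding receptor of ECs. The receptor kinase Grk2 (0.98), the signal regulator Rgs16 (1.52) and the CXCL12-cleaving peptidase Dpp4 (-1.09) were not called there, and Cxcl11 and Cd74 did not pass the filter on low counts.

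Of the 9 genes Esm1 differed most between the P0 Emcn+ replicates, where replicate 1 had 369 CPM and replicate 2 had 52.7 CPM. It had 6.70 and 11.8 CPM in P0 Emcn-, 2.18 and 5.63 in lung and 2.44 and 19.3 in BM MSC. The passaged libraries of batch b held 6.96 CPM at P1, 4.96 CPM at P2, 4.40 CPM at P3 and 4.45 CPM at P4, and those of batch c held 13.2, 16.2 and 23.1 CPM at P1, P2 and P3. Both P0 Emcn+ libraries lay above all others, and the P1 to P3 libraries spanned the levels of P0 Emcn-. The log2 fold change over P0 Emcn- was 4.58 (standard error 1.28, adjusted p = 0.0192), with 5.78 in batch d and 2.16 in batch a, and the call did not hold without P0 Emcn+ replicate 1 (2.58), P0 Emcn- replicate 1 (4.21) or P0 Emcn- replicate 2 (5.01). Without P0 Emcn+ replicate 2 it was 5.40. Over lung it was 5.76 (standard error 1.36, adjusted p = 0.00758), with 7.40 and 3.23 in batches d and a. That call was lost without lung replicate 1 (5.23), while the value was 6.55 without lung replicate 2, 3.76 or 6.58 without replicate 1 or 2 of P0 Emcn+.

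Mcam had 568 and 340.3 CPM in P0 Emcn+, 26.6 and 8.17 in P0 Emcn-, 7.01 and 25.3 in lung and 13.4 and 64.0 in BM MSC. It was below 1 CPM in all 6 libraries of P1 to P3, from 0.408 to 0.952 CPM, and at 2.61 CPM at P4. The range over the populations was thus wide, and BM MSC, P0 Emcn- and lung overlapped. The log2 difference of Mcam between P0 Emcn+ and P0 Emcn- was 4.70 (standard error 0.86, adjusted p = 0.00194), with 4.42 and 5.38 in batches d and a, and 5.85 without P0 Emcn- replicate 1. The change over lung was 4.80 (standard error 0.86, adjusted p = 0.00165), with 6.34 and 3.75, and 4.17 or 5.98 without lung replicate 1 or 2. A gene on the opposite strand, Gm10687, overlaps exons of Mcam and had at most 4.72 CPM, and whether the counting used strand is not given in the sources used here, so reads of the pair cannot be told apart there.

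Of 7 ligands and partners of Mcam, 2 were called higher in P0 Emcn+ BMECs and 3 lower, relative to P0 Emcn-. The laminin chain Lama5 (log2 fold change 4.61) and the VEGF receptor Kdr (5.65), which is also among the endothelial markers, were higher. The guidance ligand Ntn1 (-2.35), the ligand Wnt5a (-3.93) and the mural receptor Pdgfrb (-5.92) were lower, while Lama4 (-0.05) and the galectin Lgals1 (-0.63) were not called. The study's other literature tip cell genes moved with the 9 genes in P0, with 19 of 20 called higher over P0 Emcn- and 18 of 20 over lung. Igfbp3 was called in neither comparison and Mest not over lung. This tip list shares Kdr and Cldn5 with the endothelial markers. Of the study's 8 stalk cell genes, 6 were called lower than in P0 Emcn- and 4 lower than in lung, and none higher in either comparison.

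Fscn1 was expressed in every population, between 102 and 276 CPM outside P0 Emcn+. It had 1079 and 1210.2 CPM in P0 Emcn+, 228 and 276 in P0 Emcn-, 148 and 243 in lung, and 216 and 229 in BM MSC. The passaged libraries had 145 and 165 CPM at P1, 122 and 144 CPM at P2, 102 and 144 CPM at P3 and 117 CPM at P4. The P0 replicates were close, so a difference of 2.22 on the log2 scale from P0 Emcn- had a standard error of 0.24 (adjusted p = 7.43e-05), with 2.25 and 2.13 in batches d and a. Against lung the difference was 2.52 (standard error 0.24, adjusted p = 3.65e-05), with 2.87 and 2.32.

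Marcksl1 had 415 and 372 CPM in P0 Emcn+, 68.3 and 74.7 in P0 Emcn-, 47.2 and 61.8 in lung and 36.8 and 46.2 in BM MSC. P1 had 63.2 and 59.9 CPM, P2 had 25.9 and 31.3, P3 had 21.1 and 26.7, and P4 had 17.96 CPM. P0 Emcn- lay above lung and P1, which overlapped each other, and P2 to P4 lay lower than all other libraries. On the log2 scale P0 Emcn+ exceeded P0 Emcn- by 2.49 (standard error 0.18, adjusted p = 6.16e-06), with 2.60 and 2.31 in batches d and a, and lung by 2.82 (standard error 0.18, adjusted p = 3.50e-06), with 3.14 and 2.59. The pseudogene Marcksl1-ps4 reached at most 0.0922 CPM.

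Among 15 other filopodium and actin genes tested, 2 were called higher and 4 lower in P0 Emcn+ over P0 Emcn-, with a median log2 fold change of 0.02. The filopodial motor Myo10 (2.41) and the formin Daam1 (1.66) were higher, and Enah (-3.91), Baiap2 (-1.94), Baiap2l1 (-3.68) and Daam2 (-5.09) were lower. Marcks (-0.69), the relative of Marcksl1, and Cdc42 (0.60) were not called.

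Inhbb had 690.1 and 232 CPM in P0 Emcn+, 113 and 96.9 in P0 Emcn-, 37.7 and 77.0 in lung, and 42.5 and 39.9 in BM MSC. It had 16.9 and 23.8 CPM at P1, 15.3 and 19.9 CPM at P2, 16.9 and 21.3 CPM at P3, and 13.01 CPM at P4. P0 Emcn+ lay above P0 Emcn-, which lay above lung, and all passaged libraries lay below BM MSC. The log2 fold change of P0 Emcn+ over P0 Emcn- was 2.17 (standard error 0.47, adjusted p = 0.00488), with 2.62 and 1.26 in batches d and a. Without P0 Emcn+ replicate 1 it was 1.19, under the fold change limit, and without P0 Emcn+ replicate 2 it was 2.77. Over lung it was 2.99 (standard error 0.48, adjusted p = 0.000862), with 4.19 and 1.59 in batches d and a, and 2.00, 3.58 or 3.57 without P0 Emcn+ replicate 1, P0 Emcn+ replicate 2 or lung replicate 2.

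The other activin and inhibin genes did not follow Inhbb, with 5 of 12 called lower in P0 Emcn+ over P0 Emcn-, none called higher and a median log2 fold change of -1.07. Fst, the activin-binding follistatin, was lower by -5.84, with 2.79 and 6.92 CPM against 145 and 422 CPM. Fstl3 (-2.40), the inhibin alpha subunit Inha (-5.78), the receptor Acvr1c (-3.85) and the co-receptor Tgfbr3 (-2.31) were also lower. Inhba, encoding the beta A subunit of activin A, was not called (-0.34), with 5.17 and 4.44 CPM in P0 Emcn+ and 7.30 and 4.94 in P0 Emcn-. Inhba had 10.5 and 9.61 CPM at P1, 27.7 and 28.5 at P3 and 76.4 and 89.3 in BM MSC, and was called higher in P3 than in P1 (1.51).

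**Figure D2:**
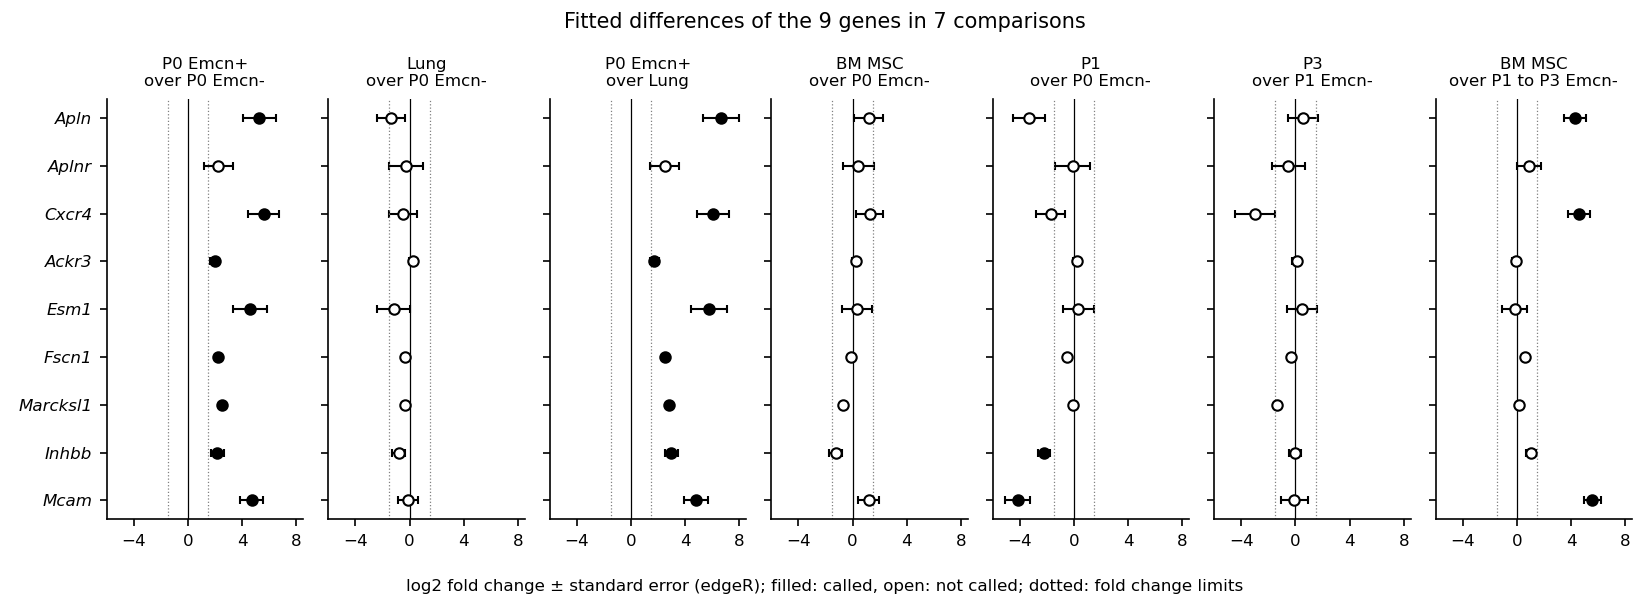
Fitted log2 fold changes (points) with standard errors (bars) of the 9 genes in 7 comparisons, 1 panel each, from edgeR's fit to all 15 libraries. Filled points were called, open points were not, dotted lines are the fold change limits of 1.5 in either direction, and calls lie in the P0 Emcn+ panels, in P1 over P0 Emcn- and in BM MSC over P1 to P3.

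For the genes that moved together in P0, the 250 bases before the RefSeq start of the gene were read from RefSeq promoters on GRCm38.p6, in which 8 of the 9 genes had an entry. The RefSeq starts of Mcam and Fscn1 lie inside the genes as GENCODE M21 places them, so their windows hold transcribed bases. They are shown for the ligand Apln, the CXCL12 receptors and Esm1, 5' to 3' on the strand of the gene, with ACGTG or GCGTG in capitals, the core letters of the hypoxia response element.
Apln, chrX:48034854-48035103, minus strand: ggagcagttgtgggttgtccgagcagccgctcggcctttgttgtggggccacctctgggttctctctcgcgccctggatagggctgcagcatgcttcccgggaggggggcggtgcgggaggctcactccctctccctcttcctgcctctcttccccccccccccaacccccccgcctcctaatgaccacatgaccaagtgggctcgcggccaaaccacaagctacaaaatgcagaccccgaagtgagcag
Cxcr4, chr1:128592300-128592549, minus strand: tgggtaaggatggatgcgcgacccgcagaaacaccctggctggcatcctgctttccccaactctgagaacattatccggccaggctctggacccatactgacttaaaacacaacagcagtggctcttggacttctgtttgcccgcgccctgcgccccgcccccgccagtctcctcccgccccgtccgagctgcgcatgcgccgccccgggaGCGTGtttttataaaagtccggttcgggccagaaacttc
Ackr3, chr1:90203730-90203979, plus strand: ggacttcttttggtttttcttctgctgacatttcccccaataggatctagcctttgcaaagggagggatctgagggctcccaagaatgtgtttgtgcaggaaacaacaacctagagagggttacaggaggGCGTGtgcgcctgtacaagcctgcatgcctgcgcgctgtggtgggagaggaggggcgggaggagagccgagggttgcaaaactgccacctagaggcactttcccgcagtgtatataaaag
Esm1, chr13:113209409-113209658, plus strand: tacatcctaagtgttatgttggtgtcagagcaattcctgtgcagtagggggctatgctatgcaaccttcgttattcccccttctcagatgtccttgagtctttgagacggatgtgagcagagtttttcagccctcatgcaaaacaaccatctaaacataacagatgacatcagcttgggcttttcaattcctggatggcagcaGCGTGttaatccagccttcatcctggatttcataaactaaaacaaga
On either strand these letters occurred once in the windows of Cxcr4, Ackr3, Esm1 and Fscn1, at 39, 120, 47 and 57 bases before the start, which is 4 of 8 windows, and in none of Apln, Marcksl1, Inhbb and Mcam, while 38.6% of 32851 promoter windows of this length held them. The ETS core CCGGAA was in none of the 8 windows and in 12.03% of all windows. TATAAA stood in the windows of Cxcr4, Ackr3 and Fscn1, against 12.4% of all windows. The GC box GGGCGG was in those of Apln, Cxcr4, Ackr3, Inhbb and Mcam, against 32.7% of all. The core letters TGGGAA of the RBPJ site were in none of the 8 windows and in 21.6% of all. The AP-1 letters TGACTCA were likewise in none of the 8 and in 4.46% of all. A match describes letters only. Of 12 common targets of hypoxia-inducible factors, 3 were called higher and 1 lower in P0 Emcn+ over P0 Emcn-, namely Car9 (log2 fold change 4.34), Ndrg1 (3.15) and Pfkfb3 (2.23) against Vegfa (-2.27).

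Between lung ECs and P0 Emcn- BMECs none of the 9 genes was called in edgeR, none had an unadjusted p under 0.05 and DESeq2 called none, while 2.13% of all genes were called higher in lung and 1.7% lower. The fitted changes ran from -1.37 for Apln (standard error 1.06, adjusted p = 0.571) to 0.23 for Ackr3 (standard error 0.31, adjusted p = 0.773). Apln, Cxcr4 and Mcam differed in sign between the batches. The library P0 Emcn- replicate 1 held more Apln, Cxcr4, Mcam and Inhbb than replicate 2, and no more Ackr3, Esm1, Fscn1 or Marcksl1. Its median level of the 12 endothelial markers was 2.88% of the P0 Emcn+ mean, against 0.316% in replicate 2. In lung the same medians were 2.02% and 7.01%, and replicate 2 held more of each of the 9 genes than replicate 1, with Aplnr on 3 against 2 counts. The part of the endothelial markers in the batch differences was not tested.

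From P0 to P1, Emcn- BMECs had 2 of the 9 genes called lower and none higher, against 3.07% and 5.77% of all genes. The log2 difference was -4.16 for Mcam (standard error 0.92, adjusted p = 0.0144) and -2.21 for Inhbb (standard error 0.47, adjusted p = 0.0123). Both P1 libraries lay below both P0 Emcn- libraries for Mcam, Inhbb, Apln, Fscn1 and Marcksl1. In edgeR 4 genes had an unadjusted p under 0.05, namely Apln, Fscn1, Inhbb and Mcam. Apln had -3.32 (standard error 1.15, adjusted p = 0.0726), and DESeq2 and the fit without a filter called it. Marcksl1 (-0.06), Esm1 (0.31), Ackr3 (0.24) and Fscn1 (-0.55) were not called. The calls of Mcam and Inhbb were lost without P0 Emcn- replicate 1 (-3.03 and -2.11), P1 replicate 1 (-4.29 and -2.01) or P1 replicate 2 (-4.04 and -2.45), and without P0 Emcn- replicate 2 Mcam was -4.76 and Apln was called at -4.16. P0 and P1 shared no batch, so passage and batch cannot be told apart.

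Within the passages no gene of the 9 was called between P3 and P1 by edgeR or DESeq2, against 0.0773% of all genes called higher and 0.144% lower, and 1 gene had an unadjusted p under 0.05. That gene was Marcksl1, whose log2 difference of -1.33 (standard error 0.17, adjusted p = 0.0274) passed the adjusted p and not the fold change limit. Both batches showed it, with -1.58 in batch b and -1.16 in batch c, and over the alternatives its adjusted p ran from 4.35e-08 to 0.279. Cxcr4 went from 36 and 53 counts at P1 to 17 and 11 counts at P2, 8 and 3 counts at P3 and 5 counts at P4. The fitted change of -3.01 had a standard error of 1.48 and an adjusted p of 0.416, with -2.25 and -4.10 in the batches. The summed 12 endothelial markers were 155 to 165 CPM at P1 and 179 to 218 CPM at P3, and none of the 12 was called between them. Among these markers Cdh5 went from 1.13 and 2.33 CPM to 0.0564 and 0.185 CPM. Flt1 went the other way, from 22.8 and 18.7 CPM to 40.7 and 30.3 CPM. The summed macrophage and blood cell markers went from 70.1 to 225 CPM to 14.1 to 17.4 CPM. The part of these markers in the Cxcr4 levels was not tested. Esm1 was lower at P3 than at P1 in batch b (-0.66) and higher in batch c (0.80), and Ackr3 moved by 0.11 and -0.04. Mcam had 95 counts in the P4 library, against 14 to 32 in the P1 to P3 libraries.

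**Figure D3:**
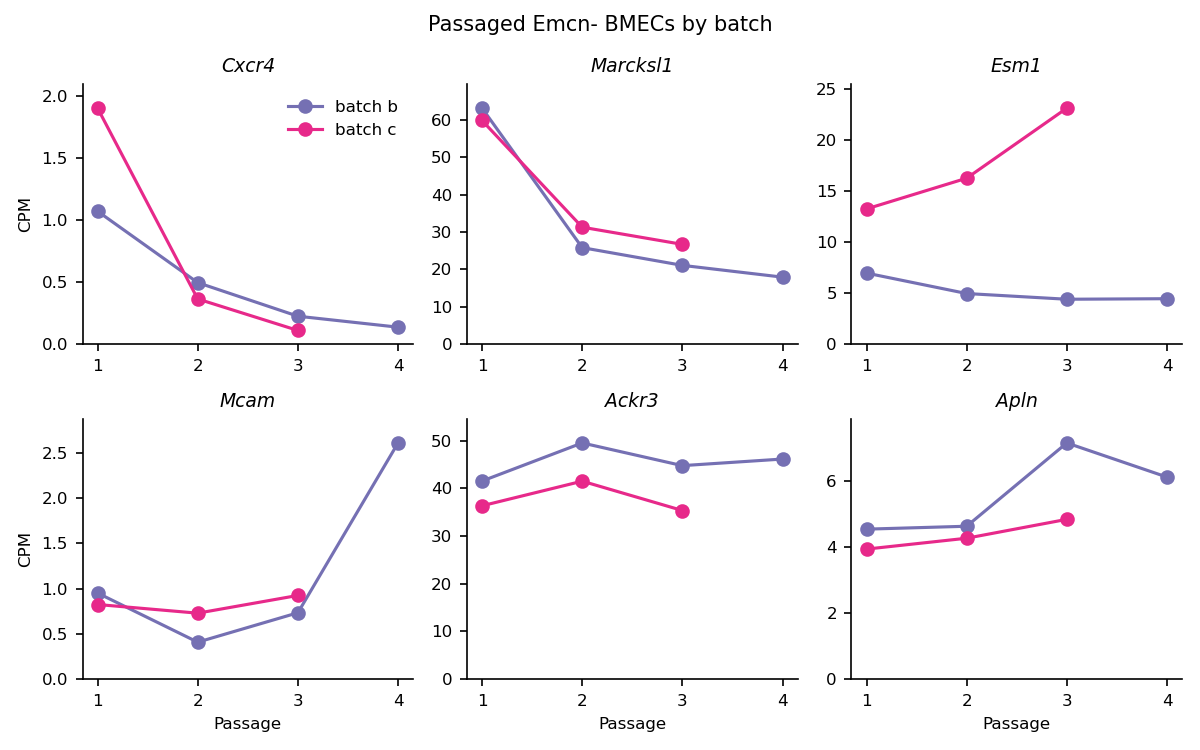
CPM of 6 of the genes (linear axes from 0, 1 panel each) against passage number, with a line for each batch and 1 library per point. Cxcr4 and Marcksl1 are lower at each later passage in both batches, Esm1 separates by batch, and Ackr3 stays between 35.3 and 49.5 CPM.

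BM MSC did not differ from P0 Emcn- BMECs by a call in any of the 9 genes with edgeR or DESeq2, where 11.3% of all genes were called higher and 7.45% lower. These populations shared no batch, so population and batch cannot be told apart. Marcksl1 (log2 fold change -0.70, standard error 0.17, adjusted p = 0.0105) and Inhbb (-1.25, standard error 0.45, adjusted p = 0.055) were the 2 genes with an unadjusted p under 0.05. Compared with P1 to P3, 3 of the 9 were called higher in BM MSC and none lower, against 8.42% and 5.81% of all genes. Mcam was higher by 5.58 (standard error 0.62, adjusted p = 0.000175), Cxcr4 by 4.56 (standard error 0.82, adjusted p = 0.00244) and Apln by 4.29 (standard error 0.79, adjusted p = 0.00265). Within batch c, which holds both BM MSC libraries, the values were 5.55, 3.97 and 4.57. Fscn1 (0.62, adjusted p = 0.0245) and Inhbb (1.03, adjusted p = 0.0468) in edgeR did not reach the limit on the fold change, and Ackr3 (-0.10) and Marcksl1 (0.16) were not called.

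Of the 3 calls, those of Cxcr4 and Apln rested on BM MSC replicate 2. Without it Mcam was still called at 4.10, while Cxcr4 (1.87) and Apln (1.48) were not, and without replicate 1 the values were 6.30, 5.44 and 5.18. Replicate 2 held 10.7% of the P0 Emcn+ mean of Apln, 8.90% of Cxcr4, 14.1% of Mcam and 9.15% of Esm1, against 0.795%, 0.716%, 2.96% and 1.16% in replicate 1. The median of the 12 endothelial markers was 3.26% in replicate 2 and 0.638% in replicate 1, with Cdh5 at 2.75% and 0.139%. Their summed level was 492 CPM in replicate 2 and 182 CPM in replicate 1, and 7 of the 12 were called higher and 2 lower in BM MSC than in P1 to P3. The sum of 10 mural markers, Kcnj8 and Pdgfrb among them, was 1594 to 2287 CPM in BM MSC and 367 to 481 CPM over P1 to P3, with 6 called higher. The osteolineage sum was 2490 and 3609 CPM in BM MSC and 1449 to 5614 CPM over P1 to P3. The part of these markers in the Apln, Cxcr4 and Mcam differences was not tested.

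**Figure D4:**
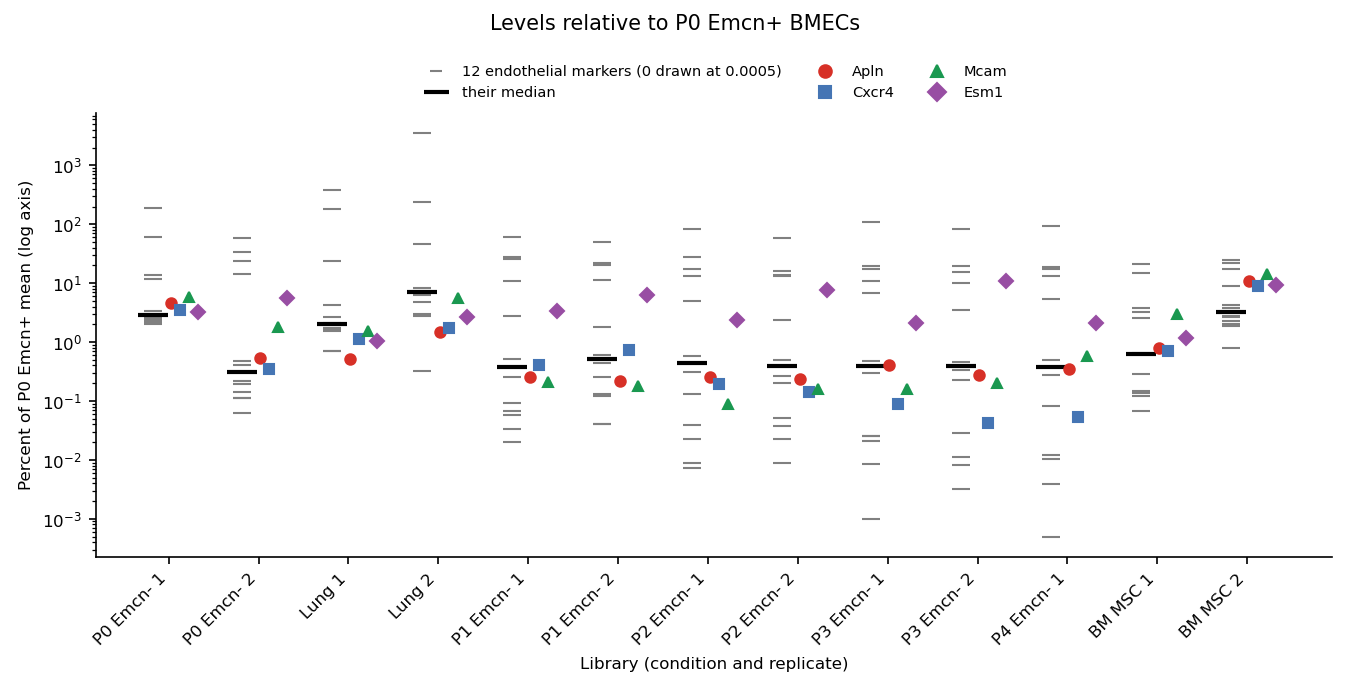
Level in each library outside P0 Emcn+, in percent of the P0 Emcn+ mean (log axis), for Apln, Cxcr4, Mcam and Esm1 (coloured symbols), the 12 endothelial markers (grey marks, with 0 drawn at 0.0005) and their median (black). The symbols stand above the black mark in all P0 Emcn- and BM MSC libraries, while in the passaged libraries Mcam lies under it up to P3 and Esm1 lies above it.

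Likeness of profiles was measured as the root mean square difference of log2 CPM over the 15 libraries after centring, as a description with no test. Among the 9, Fscn1 and Marcksl1 were nearest (0.44), followed by Aplnr and Fscn1 (0.56), although Aplnr rests on few counts. Apln was nearest to Mcam (1.03) and Cxcr4 (1.07), and the pair farthest apart was Cxcr4 and Ackr3 (2.80), the receptors of the same ligand. Over all genes tested, the profile of Apln was closest to Pgf (0.40), which encodes placental growth factor, then Wscd1 (0.60) and Nr5a2 (0.63), where its own standard deviation was 2.98. Cxcr4 was closest to She (0.85), Cd93 (0.87) and Gimap8 (0.88), and Mcam to Rasgrp3 (0.81), Gimap8 (0.84) and Vash1 (0.85). The nearest genes were Bmp2 (0.75), Inpp4b (0.80) and D930048N14Rik (0.81) for Esm1, and Adamts4 (0.41), Gm43259 (0.55) and Cd40 (0.55) for Inhbb. They were Arhgef7 (0.23), Cdc42ep1 (0.24) and Ephb4 (0.24) for Fscn1, Mapk12 (0.38), Smad1 (0.39) and Rnf122 (0.39) for Marcksl1, and Fryl (0.21), Lmtk2 (0.23) and Hivep1 (0.24) for Ackr3. For Aplnr they were Foxh1 (0.42), Bcl10 (0.46) and Creb3l2 (0.47), against its own standard deviation of 0.87. Libraries of 1 batch or 1 culture are not independent points in this measure.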

How the data were processed

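Total RNA of sorted cells was made into bulk libraries by the authors with the KAPA RNA HyperPrep kit. The authors trimmed the reads, mapped them with STAR to GRCm38 in an nf-core pipeline, estimated transcripts with Salmon on Ensembl and summarised them by gene using tximport. The deposited values are whole-number counts per gene, not normalized by the authors, and how these were rounded and whether strand was used are not given in the sources used here. Of 44674 genes 8 have a blank symbol and 20 symbols occur more than once, none of them a gene named here.

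Groups, replicate numbers and batches came from the sample labels. The methods name 3 batches of replicates, on more than 1 sequencer model, where the labels give 4, and the labels were used. Counts were scaled to CPM by library total, and coordinates and exon lengths came from GENCODE M21, which holds 44118 of the identifiers. Replicates differed by more than counting noise in each replicated population (chi-square divided by its degrees of freedom, 42.5 to 141, over genes with at least 20 counts). Counts were tested in R 4.3.3 with edgeR 4.0.16 (TMM factors, filterByExpr with minimum count 10, quasi-likelihood test, 1 coefficient per population, 19401 genes, 7 residual degrees of freedom), with limma 3.58.1 loaded by it. All 9 genes passed the filter. DESeq2 1.42.0, RLE factors, no filter, a filter of 50 counts in 2 libraries, the compared groups alone, no fold change limit, a replicate block and each library left out in turn were the alternatives. The script was checked on simulated counts. The genes and all gene lists were chosen with earlier results of these data known, and the genes named are the 9, genes of the lists and for each of the 9 the 3 nearest profiles (prior count 2).

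Replicates with 1 number share a batch by the labels within P0 and lung, and likewise from P1 to P3, which pairs them. Deviations of same-numbered libraries from their group means correlated across genes by 0.139 to 0.209 among P0 and lung libraries and by 0.354 to 0.451 among P1 to P3, against up to 0.127 where no batch is shared. The replicate block has 2 centred terms, 1 for batches a and d and 1 for batches b and c. The paper's single-cell data were not used here. The values of 1 listed gene are not reported here.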

Additional observations from a re-analysis of the deposited data

Results flagged for a closer look

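In 4 cases the change of a gene had opposite signs in the 2 batches of a comparison, each by more than 0.5 on the log2 CPM scale with 1 library per population and batch, a limit chosen after the values were seen. Whether the batches differ was not tested. In lung over P0 Emcn-, Apln had 1.42 in batch a and -3.16 in batch d, Cxcr4 had 2.33 and -1.61, and Mcam had 1.63 and -1.92. In P3 over P1, Esm1 had -0.66 in batch b and 0.80 in batch c, with P2 between P1 and P3 in both batches.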

How the results depend on the processing

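Outside the runs that leave out a library, 46 counts of genes called stayed within 1.5 times and 3 did not, and of the values of single genes 361 kept sign and call, 3 turned sign and 2 gained a call. Without the fold change limit the number called was 1 in place of 0 in BM MSC over P0 Emcn- and in P3 over P1, and 5 in place of 3 in BM MSC over P1 to P3. In P1 over P0 Emcn-, Apln was called by DESeq2 (-3.28) and without the filter on low counts (-3.36). The replicate block, which pairs libraries by batch, changed no call, and it turned the sign of Mcam in lung over P0 Emcn- (0.011), of Esm1 in BM MSC over P0 Emcn- (-0.49) and of Ackr3 in BM MSC over P1 to P3 (0.069), none of them called. A filter of 50 counts left Aplnr untested.

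When single libraries were left out, the number called ran from 6 to 8 in P0 Emcn+ over P0 Emcn- and over lung, from 0 to 3 in P1 over P0 Emcn- and from 1 to 3 in BM MSC over P1 to P3. A lone library was then assumed to vary like the other populations. Signs turned only for values that were not called. In lung over P0 Emcn- the ranges were -2.26 to 0.91 for Apln, -1.05 to 0.32 for Aplnr, -1.22 to 2.10 for Cxcr4, -0.33 to 0.64 for Ackr3 and -1.27 to 1.03 for Mcam. In BM MSC over P0 Emcn- they were -1.63 to 3.46 for Apln, -0.37 to 0.98 for Aplnr, -1.44 to 3.83 for Cxcr4, -1.78 to 1.15 for Esm1, -0.22 to 0.032 for Fscn1 and -0.30 to 2.31 for Mcam. In P1 over P0 Emcn- they were -4.72 to 0.81 for Aplnr, -2.48 to 0.84 for Cxcr4, -0.20 to 0.71 for Esm1 and -0.13 to 0.0045 for Marcksl1. In P3 over P1 they were -1.43 to 4.10 for Aplnr, -0.14 to 0.27 for Ackr3, -1.12 to 1.20 for Esm1, -0.26 to 0.19 for Inhbb and -0.21 to 0.055 for Mcam. In BM MSC over P1 to P3 they were -0.22 to 0.022 for Ackr3 and -2.27 to 0.66 for Esm1. The cause was not tested, and 2 libraries per population limit every comparison.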

Other observations

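Against the 12 endothelial markers, the genes took different levels in libraries with some endothelial marker RNA. In BM MSC replicate 2 the markers stood between 0.792% (Cldn5) and 25.03% (Flt1) of their P0 Emcn+ means, with a median of 3.26%, while Apln stood at 10.7%, Cxcr4 at 8.90%, Mcam at 14.1% and Esm1 at 9.15%. In lung replicate 2 they stood between 0.325% (Cldn5) and 3483% (Vwf), with a median of 7.01%, while Apln stood at 1.46%, Cxcr4 at 1.76%, Mcam at 5.57% and Esm1 at 2.67%. In P0 Emcn- replicate 1 they stood between 2.02% (Pecam1) and 190.5% (Flt1), with a median of 2.88%, while Apln stood at 4.66%, Cxcr4 at 3.47%, Mcam at 5.86% and Esm1 at 3.18%. Vwf, which encodes von Willebrand factor, was above its P0 Emcn+ mean in both lung libraries, at 379% and 3483%, and Flt1 was at 178% and 239% there.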
